A study of Mus musculus with 23 samples.

Results

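Tumour pieces exposed to cabozantinib outside the body were compared with pieces of the same kind held in media, using 4 of the 23 bulk RNA sequencing libraries of the series. The members were chosen by the sample titles alone. The EV media group has 2 libraries and the EV cabozantinib group has 2 libraries. The tumours grew under the skin of the flanks of male C57BL/6 mice aged 8 to 10 weeks, from TC2Ras cells. That line is TRAMP-C2, a mouse prostate adenocarcinoma line, transduced with a lentivirus that carries an activated H-ras. All 4 libraries come from the empty vector (EV) arm, in which the tibialis anterior muscle of the leg received 10 µg of a control plasmid with no IL-27 sequence (pTSTA-ctrl), driven into the tissue with ultrasound and microbubbles. The controls therefore carry the plasmid treatment too, and the labels separate the 2 groups by the ex vivo exposure. No dose or exposure time is given in the labels, nor do they say if the 2 libraries of a group are from different mice or if 1 tumour supplied several exposures. The p-values below rest on the spread between libraries within the 12 groups of the series, which were fitted together, and that spread may be technical.

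Cabozantinib is a small-molecule inhibitor of receptor tyrosine kinases. Its best known targets are MET, the receptor of hepatocyte growth factor, the VEGF receptors that endothelial cells use to build vessels, and AXL and RET. Such receptors pass their signal through RAS and the MAP kinase cascade, which switches on immediate early transcription factors and then feedback inhibitors such as the dual-specificity phosphatases and Sprouty proteins, and through PI3 kinase and AKT, which hold FOXO transcription factors inactive. In TC2Ras cells an activated RAS lies downstream of the receptors.

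The 4 library totals ran from 64950971 to 83088346 counts, so that 1 CPM (TMM-scaled, the unit of every level below) stood for 67.5 to 86.5 counts. The pair of media libraries correlated across 13281 genes at 0.962 and the pair of cabozantinib libraries at 0.924, while cabozantinib 2 correlated with the media libraries at 0.966 and 0.970. EV cabozantinib 1 stands apart from the other 3. Its 15 ribosomal protein genes summed to 38600 CPM against 15430 to 26290, its mitochondrially encoded genes to 13400 CPM against 20880 to 22500, and a ribosomal RNA gene, CT010467.1, lay at 5412 CPM against 993 to 2673. The part these features play in the results was not tested, so values without that library are given beside the gene groups they move. Of the prostate tumour markers, Krt8 lay at 17.4 to 26.8 CPM, whereas Krt18, Epcam and Cdh1 were under 1 CPM and Hoxb13 had no count. Hras, whose reads cannot be told apart here from those of the introduced H-ras where the sequences match, was at 21.9 and 13.8 CPM in media and 30.7 and 17.0 in cabozantinib. Skeletal muscle markers summed to 1.30 to 3.54 CPM.

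Cabozantinib against media called no gene at an adjusted p under 0.05 in edgeR's quasi-likelihood test (0 of 24440 genes, 0%), and every adjusted p was 1. The gene groups that lay apart most often were, on the high side, interferon-inducible GTPases, macrophage markers, T-cell and monocyte chemokines, cholesterol synthesis, type I interferon genes, MHC class I presentation and T-cell markers. On the low side they were immediate early genes, matrix proteases, mitotic genes, RAS-MAPK output, keratinocyte markers and the integrated stress response. The T-cell and keratinocyte markers were near the limit of detection, with 1 of 13 and 1 of 11 at a mean of at least 1 CPM. At an unadjusted p under 0.05 there were 444 genes, or 1.82%. That share is smaller than this threshold would give with no difference at all, so the p-values were on the cautious side here. They use a spread estimated over all 12 groups, and a fit of the 4 libraries alone also called 0. DESeq2 called 21 genes (0.0673% of those it adjusted), of which 18 had no count in one of the groups and 13 had counts in a single library. Over all tested genes, both cabozantinib libraries lay above both media libraries in 14.1% and below both in 13.4%. Among the 13281 genes with a mean of at least 1 CPM the same shares were 15.9% and 16%, and the median log2 difference was 0.01. The counts of members below are to be read against these shares. The lists and their members were chosen with earlier results of these data known, so an excess over a share is a description and not an independent result. For 3683 of the 13281 genes (27.7%) the 95% interval of the difference lay within 2-fold in both directions, and for the others it reached beyond 2-fold in at least 1 direction. The median standard error among them was 0.46 on the log2 scale.

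**Figure D1:**
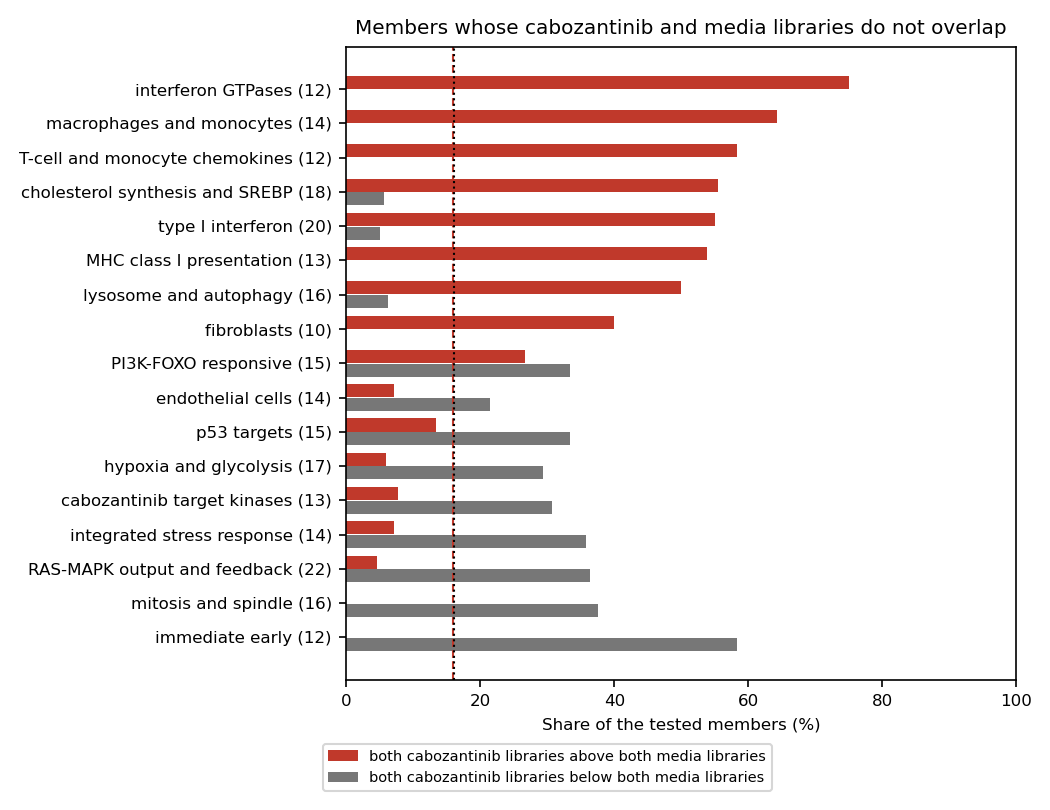
Share of the tested members of 17 gene groups (number tested in parentheses) whose 2 cabozantinib libraries both lay above (red) or both below (grey) the 2 media libraries. The dashed and dotted lines mark the shares among all genes with a mean of at least 1 CPM, 15.9% above and 16% below. Interferon GTPases stand highest with 9 of 12 members above, and immediate early genes have the most below, 7 of 12.

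None of the target kinases was called. Met, the hepatocyte growth factor receptor (chr6:17463800-17573980, the gene's span in GENCODE on GRCm38, as for the spans below), was at 52.5 and 62.4 CPM in media and 48.4 and 52.6 in cabozantinib. These ranges overlap, and the log2 difference was -0.19 (95% interval -1.17 to 0.80, edgeR unadjusted p = 0.70). Axl, a receptor of the Gas6 ligand and an abundant transcript here, was at 531 and 516 CPM in media and 457 and 530 in cabozantinib, a log2 difference of -0.09 (-0.60 to 0.43). For Axl a 2-fold difference thus lies outside the interval. Flt1, the VEGF receptor 1, lay below media in both cabozantinib libraries, at 29.0 and 50.9 CPM against 70.5 and 72.0. Its log2 difference of -0.84 had an interval of -2.36 to 0.68, and EV cabozantinib 1 had the lower value. Kdr, the main VEGF receptor of endothelial cells, was at 9.84 and 8.17 CPM in media and 6.08 and 6.16 in cabozantinib (log2 difference -0.56, -2.27 to 1.15). Flt3 also lay below in both, and Ret was near the limit of detection, at 0.251 and 0.0231 CPM in media with no count in cabozantinib (at least 3.22-fold lower, from a floor of 3 counts per library). In all, 4 of 13 tested kinases were below, 1 (Tek) above and 8 overlapped, with a median log2 difference of -0.32. That median was -0.18 without EV cabozantinib 1, -0.55 without EV cabozantinib 2 and -0.11 without EV media 2.

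Among 13 ligands of these kinases, 3 lay above media in both libraries and 1 below. Gas6, the ligand of Axl, was at 3.25 and 3.27 CPM in media and 5.90 and 4.92 in cabozantinib. Hgf, the ligand of Met, was at 1.56 and 3.81 CPM in media and 1.81 and 3.67 in cabozantinib, a difference well inside the replicate spread. Vegfa was at 632 and 569 CPM in media and at 352 and 619 in cabozantinib, so that the second cabozantinib library lay between the media libraries.

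RAS-MAPK output and feedback genes lay below media more often than above. Of 22 members, 8 were below in both cabozantinib libraries, 1 was above and 13 overlapped, and the median log2 difference was -0.38, against 0.01 over all genes of at least 1 CPM. Epha2, an ephrin receptor kinase whose transcription follows RAS-MAPK activity (chr4:141301240-141329384), was at 79.5 and 82.7 CPM in media and 43.9 and 46.1 in cabozantinib. Its replicates were close and the groups well apart, with a log2 difference of -0.85 (SE 0.31, interval -1.51 to -0.19, edgeR unadjusted p = 0.0143). Ier3, an early response gene, was at 337 and 319 CPM in media and 225 and 157 in cabozantinib. Dusp4, a phosphatase that inactivates MAP kinases, was at 227 and 268 CPM in media and 143 and 206 in cabozantinib. Fosl1, a FOS-family partner in AP-1, was at 249 and 208 CPM in media and 182 and 86.0 in cabozantinib. None of the members was called, and the intervals of Ier3 (-1.64 to 0.08), Dusp4 (-1.08 to 0.08) and Fosl1 (-1.81 to 0.27) included no difference. The feedback genes most used as readouts did not separate: Dusp6, the ERK phosphatase, was at 66.8 and 102 CPM in media and 56.9 and 78.6 in cabozantinib, and Spry2 at 49.5 and 41.1 against 48 and 42.4. Spry1, another Sprouty inhibitor, lay above, at 4.01 and 5.04 CPM in media and 6.11 and 9.76 in cabozantinib. Without EV cabozantinib 1 the median of the group was -0.17, and without EV cabozantinib 2 it was -0.55.

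Immediate early genes, which encode transcription factors and RNA regulators induced within minutes of growth factor signals, had the largest share of members below, 7 of 12, with none above and a median log2 difference of -0.63. Egr1, a zinc finger factor, was at 123 and 152 CPM in media and 70.5 and 90.4 in cabozantinib (log2 difference -0.77, interval -1.62 to 0.08). Nr4a1, an orphan nuclear receptor, was at 26.8 CPM in both media libraries and 17.4 and 16.2 in cabozantinib (-0.67, -1.46 to 0.12). Jun was at 43.1 and 65.7 CPM in media and 37.7 and 29.5 in cabozantinib. The replicates of these 3 genes did not overlap between groups, and all 3 intervals included 0. Junb was spread widely among replicates, at 4.95 and 30.4 CPM in media and 6.53 and 3.17 in cabozantinib. Without EV media 2, which had the higher media level of 10 of the 12 members, the median of the group was -0.15.

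**Figure D2:**
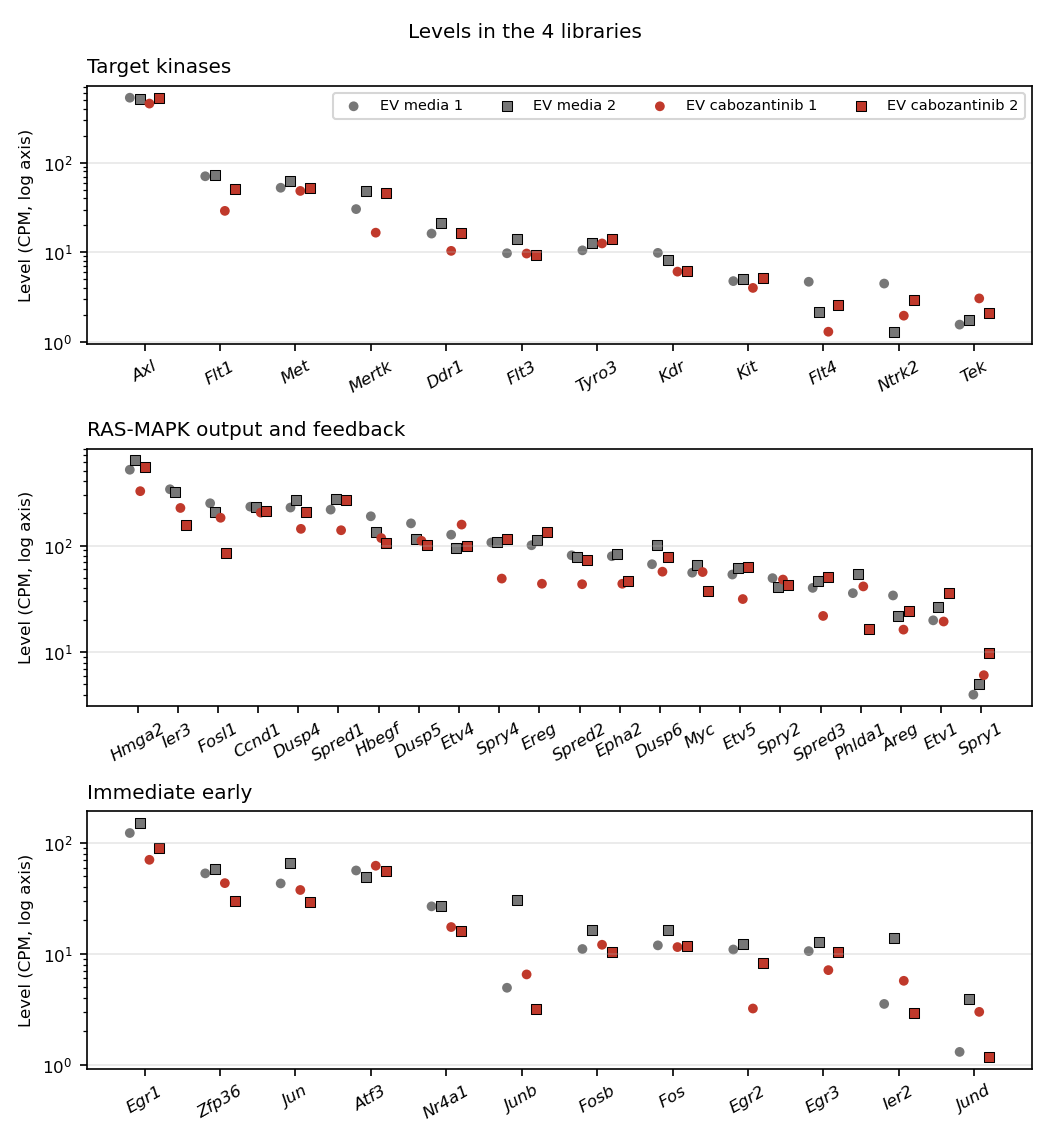
Level of each gene (CPM, log axis) in EV media 1 and 2 (grey) and EV cabozantinib 1 and 2 (red), circles for replicate 1 and squares for replicate 2, for the 12 target kinases with a mean of at least 1 CPM, all 22 RAS-MAPK genes and all 12 immediate early genes. Epha2, Egr1 and Nr4a1 lie below media in both cabozantinib libraries, while Axl, Met and Dusp6 overlap.

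The CArG box, the binding motif of serum response factor that controls many immediate early genes, was searched on both strands of the RefSeq promoter windows of build GRCm38.p6, from 250 bases before to 50 after each annotated start. Of the 9 immediate early genes in that table, 2 held it (22.2%), against 1.81% of 27025 genes. The cyclic AMP response element, TGACGTCA, was found in 0 of the 9 and in 2.03% of all. Zfp36 encodes an RNA-binding protein that shortens the life of inflammatory transcripts. It was at 53.2 and 57.9 CPM in media and at 43.4 and 30.2 in cabozantinib, and its window, chr7:28379179-28379478 (minus strand), is shown because it carries the box close to the start, here in capitals:
Zfp36: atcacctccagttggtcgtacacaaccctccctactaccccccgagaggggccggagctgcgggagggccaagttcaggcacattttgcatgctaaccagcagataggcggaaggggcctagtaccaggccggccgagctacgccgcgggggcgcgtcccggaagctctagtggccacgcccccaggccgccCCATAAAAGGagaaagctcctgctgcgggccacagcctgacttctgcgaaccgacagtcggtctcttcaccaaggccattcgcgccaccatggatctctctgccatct

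Cholesterol synthesis genes lay above media more often than below. Of 18 genes that SREBP transcription factors control, 10 were above in both cabozantinib libraries and 1 was below, with a median log2 difference of 0.43, and none was called. Cyp51, the lanosterol demethylase, was at 97.6 and 90.3 CPM in media and 168 and 125 in cabozantinib (log2 difference 0.64, interval -0.04 to 1.33, edgeR unadjusted p = 0.0630). Msmo1, the next demethylating oxidase of the pathway, was at 164 and 144 CPM in media and 267 and 199 in cabozantinib (0.59, -0.11 to 1.29). Insig1, the sterol-regulated protein that retains SREBP in the endoplasmic reticulum (chr5:28071363-28078662), was at 47.1 and 53 CPM in media and 69.8 and 80.6 in cabozantinib (0.59, -0.22 to 1.40). The groups did not overlap for these 3 genes, though the cabozantinib replicates of Cyp51 and Msmo1 lay farther apart than the gap to media. Stard4, a sterol carrier, had closer replicates, at 46.7 and 46.8 CPM in media and 68.0 and 64.8 in cabozantinib. Hmgcs1, which makes HMG-CoA, was at 104 and 108 CPM in media and 147 and 138 in cabozantinib. The direction was not shared by all members: 7 overlapped between the groups, and Srebf2 itself was below, at 160 and 187 CPM in media and 148 and 150 in cabozantinib. The median of the group was 0.33 without EV cabozantinib 1 and 0.26 without EV media 1. EV cabozantinib 2 alone lay above both media libraries in 13 of the 18, where that library did so for 30.5% of all genes of at least 1 CPM.

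A sterol response element, TCACNCCAC, searched on both strands, was found in the promoter window of 1 of the 10 members in the table (10%) and of 1.44% of all genes. That member is Hmgcs1, whose window, chr13:119690101-119690400 (plus strand), is shown with the element in capitals:
Hmgcs1: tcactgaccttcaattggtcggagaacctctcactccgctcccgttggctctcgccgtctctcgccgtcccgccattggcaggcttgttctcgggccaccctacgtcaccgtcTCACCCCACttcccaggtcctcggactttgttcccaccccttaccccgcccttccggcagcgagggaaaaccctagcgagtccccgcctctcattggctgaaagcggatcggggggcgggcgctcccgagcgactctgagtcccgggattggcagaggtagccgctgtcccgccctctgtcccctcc

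Genes of the PI3K-FOXO group divided in both directions. FOXO factors activate such genes when PI3 kinase is inactive, and some respond to glucose sensing as a separate control. Txnip, which restrains glucose uptake (chr3:96557957-96561883), was at 99.4 and 154 CPM in media and 204 and 299 in cabozantinib. It had one of the smallest p-values of the comparison, with a log2 difference of 0.99 (SE 0.34, interval 0.26 to 1.72, edgeR unadjusted p = 0.0107). Pik3ip1, an inhibitor of PI3 kinase, was at 10.3 and 9.19 CPM in media and 25.2 and 15.9 in cabozantinib. Trib2, a pseudokinase, was at 5.67 and 7.56 against 10.9 and 13, and Sesn1, a stress-induced brake on mTORC1, at 18.8 and 25.3 against 26.6 and 39.8. These 4 of 15 members lay above and 5 lay below, among them Trib1, Bcl6 and Klf6, so the median, 0.07, was close to that of all genes. It changed sign without EV media 1 (-0.18) or without EV cabozantinib 2 (-0.17).

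Genes of hypoxia and glucose use were below in 5 of 17 and above in 1. Slc2a1, the GLUT1 glucose transporter, was at 809 and 654 CPM in media and 505 and 497 in cabozantinib (log2 difference -0.55, interval -1.12 to 0.02, edgeR unadjusted p = 0.0586). Adm, the vasodilator peptide adrenomedullin, was at 114 and 101 CPM in media and 58.0 and 61.4 in cabozantinib, a difference of -0.85 (-1.63 to -0.07, unadjusted p = 0.0341). The glycolytic enzymes Ldha and Pgk1 overlapped between the groups, with Ldha at 2326 and 1882 CPM in media and 2765 and 2003 in cabozantinib. The group median was -0.09.

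Lysosomal genes lay above in 8 of 16 and below in 1, with a median log2 difference of 0.31 that stayed at 0.26 to 0.31 with each library left out in turn. Ctsl, the protease cathepsin L, was at 2112 and 1906 CPM in media and 2954 and 2810 in cabozantinib. Both cabozantinib libraries lay above both media libraries, and the difference was 0.52 (interval 0.03 to 1.02, edgeR unadjusted p = 0.0404). Map1lc3b, the autophagosome protein LC3B, was at 144 and 121 CPM in media and 212 and 200 in cabozantinib. Lgmn, the lysosomal protease legumain, is among the genes with the smallest p-values and was at 245 and 238 CPM in media and 472 and 364 in cabozantinib (0.79, 0.17 to 1.41). Lamp1, Lamp2 and Sqstm1 overlapped. The CLEAR element, the palindrome bound by the lysosomal regulator TFEB, was in 0 of 14 members' windows and in 0.37% of all genes.

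Interferon-inducible GTPases, which attack the vacuoles of intracellular pathogens, lay above media in 9 of 12 members and below in none, with a median log2 difference of 1.09. Their levels were low and their intervals wide, and the smallest unadjusted p was 0.10. Igtp was at 2.07 and 1.26 CPM in media and 6.51 and 4.35 in cabozantinib (log2 difference 1.71, interval -0.64 to 4.05). Gbp2 was at 8.50 and 5.72 CPM in media and 19.0 and 9.09 in cabozantinib (0.98, -1.53 to 3.49). Both genes were higher in EV cabozantinib 1 than in 2. Type I interferon-stimulated genes were above in 11 of 20 and below in 1, with a median of 0.51. Rtp4, a chaperone of membrane receptors that interferon induces, was at 4.24 and 3.56 CPM in media and 11.6 and 7.02 in cabozantinib. Ifit1, Ifit2 and Mx2 overlapped. Tgtp1 and Tgtp2, and the Gbp genes, are close copies whose reads the counting could split between them, so their single values are uncertain. Without EV cabozantinib 1 the medians were 0.65 for the GTPases and 0.29 for the type I genes.

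The GTPases share a sequence feature. The interferon-stimulated response element, searched on both strands as the word GAAA, any 2 bases and GAAA again, occurs in the promoter window of 9 of the 9 GTPases in the RefSeq table, against 3.99% of all genes, and in 9 of 14 type I interferon genes (64.3%). Igtp, chr11:58199306-58199605 (plus strand), and Gbp2, chr3:142620413-142620712 (plus strand), are shown with the element in capitals, which in Gbp2 stands on the opposite strand:
Igtp: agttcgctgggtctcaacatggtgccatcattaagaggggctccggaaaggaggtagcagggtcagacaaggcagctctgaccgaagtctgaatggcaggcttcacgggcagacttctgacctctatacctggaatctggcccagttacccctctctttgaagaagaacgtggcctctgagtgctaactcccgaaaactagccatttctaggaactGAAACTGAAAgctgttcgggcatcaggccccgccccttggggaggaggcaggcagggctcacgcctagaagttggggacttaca
Gbp2: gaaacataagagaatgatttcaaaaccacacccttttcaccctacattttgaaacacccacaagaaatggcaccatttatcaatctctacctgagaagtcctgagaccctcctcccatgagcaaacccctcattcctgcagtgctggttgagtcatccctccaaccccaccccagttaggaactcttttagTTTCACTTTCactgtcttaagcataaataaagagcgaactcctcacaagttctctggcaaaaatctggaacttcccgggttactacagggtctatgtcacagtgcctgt

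MHC class I presentation genes were above in 7 of 13 and below in none, with a median of 0.71. H2-K1, a classical class I heavy chain, was at 59.4 and 57.0 CPM in media and 132 and 66.5 in cabozantinib, and Tap1, the peptide transporter, at 4.12 and 2.76 against 8.93 and 5.54. EV cabozantinib 1 held the higher value of both, and without it the group median was 0.15. Cd274, which encodes PD-L1, was at 16.9 and 14.6 CPM in media and 12 and 16.7 in cabozantinib, with no difference beyond the replicate spread (-0.13, interval -1.76 to 1.5).

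Macrophage and monocyte markers were above in 9 of 14 and below in none, and their summed level was 597 and 520 CPM in media and 1082 and 695 in cabozantinib. In bulk tissue, more or fewer cells of a type and more or less RNA per cell cannot be told apart. Adgre1, which encodes the F4/80 antigen, was at 4.27 and 7.89 CPM in media and 16.7 and 16.6 in cabozantinib (log2 difference 1.45, interval -0.06 to 2.96, edgeR unadjusted p = 0.0580). Csf1r, the receptor that macrophages need to survive, was at 18 and 18.9 CPM in media and 46.3 and 33.0 in cabozantinib (1.10, -0.06 to 2.27). The lysosomal and interferon groups above include genes that macrophages express strongly, and the part of the marker level in those results was not tested. Lyz2, at 177 and 144 against 366 and 224, lay above too, while C1qc and Arg1 overlapped. The median over the markers was 0.95, and 0.39 without EV cabozantinib 1. Of 12 chemokines that draw T cells and monocytes, 7 were above and none below. Cxcl16, the ligand of CXCR6, was at 5.99 and 4.10 CPM in media and 12.7 and 13.7 in cabozantinib (1.39, 0.17 to 2.60, unadjusted p = 0.0279), and Ccl2, the monocyte chemokine MCP-1, at 102 and 69.8 against 144 and 131.

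T-cell transcripts were at the limit of detection. Cd3e, the CD3 epsilon chain, had no count in either media library and 24 and 12 counts in the cabozantinib libraries, or 0.324 and 0.178 CPM. Taking 3 counts per library as the floor, Cd3e was at least 6.76-fold higher in cabozantinib. That floor covers counting error only and lies under the steps of 4 in which many small counts come. Folds given as at least a value are thus not strict lower limits, here and for other genes. Trac, the constant segment of the receptor's alpha chain, went the other way, from 0.409 and 0.150 CPM in media to no count in cabozantinib. The 13 T-cell markers summed to 2.43 and 2.61 CPM in media and 6.21 and 4.70 in cabozantinib. In that list 7 members lay above and 1 below, and 7 had a group with no count. Its median log2 difference was 2.43 as fitted and 1.13 with those members set to their bounds. Neutrophil markers summed to 0.855 to 6.28 CPM, with none of 12 outside the media range in both libraries.

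Endothelial markers showed no common direction, with 3 of 14 below, 1 above and a median of 0.15 that became -0.32 without EV cabozantinib 1. The share below, 21.4%, was near the 16% among all genes of at least 1 CPM. Flt1 and Kdr, which lay below, and Tek, which lay above, are also counted among the target kinases. Cdh5, the junction protein VE-cadherin, was at 53.5 and 55.5 CPM in media and 25.8 and 45.2 in cabozantinib, while Pecam1 overlapped at 57.0 and 45.8 against 51.4 and 56.0. The markers summed to 281 and 246 CPM in media and 228 and 224 in cabozantinib. Fibroblast markers were above in 4 of 10, among them Col3a1, a fibrillar collagen, at 1139 and 1200 CPM in media and 1729 and 1806 in cabozantinib.

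Mitotic genes were below in 6 of 16 and above in none, with a median of -0.25 that was -0.16 without EV cabozantinib 1 and -0.40 without EV cabozantinib 2. Mki67, the proliferation antigen, was at 262 and 293 CPM in media and 178 and 221 in cabozantinib (log2 difference -0.48, interval -1.52 to 0.56). Plk1, a mitotic kinase, was at 44.8 and 45.0 CPM in media and 34.4 and 31.5 in cabozantinib. Genes of DNA replication had a median of 0.01, with 4 of 16 below and 1 above. Targets of p53 were below in 5 of 15 and above in 2. Mdm2, the p53 antagonist, was at 112 and 125 CPM in media and 60.0 and 95.6 in cabozantinib. Among the BCL2 family, Bmf, a cell-death activator, was at 1.72 and 2.37 CPM in media and 4.16 and 6.68 in cabozantinib (1.41, 0.21 to 2.60, unadjusted p = 0.0237), and Bbc3, which encodes PUMA, was at 0.976 and 2.09 against 0.365 and 0.370.

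Integrated stress response genes were below media in 5 of 14 (35.7%) and above in 1 (median -0.15). The next stress programmes lay nearer to the share of 16% below among all genes of at least 1 CPM. NF-kB and inflammatory cytokine genes were below in 4 of 19 (21%) and above in 1 (median -0.12). Heat shock genes were below in 3 of 12 (25%) and above in none (median -0.16). NRF2 and metallothionein genes were likewise below in 3 of 12 (median -0.08). All 12 genes of the unfolded protein response overlapped between the groups.

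**Figure D3:**
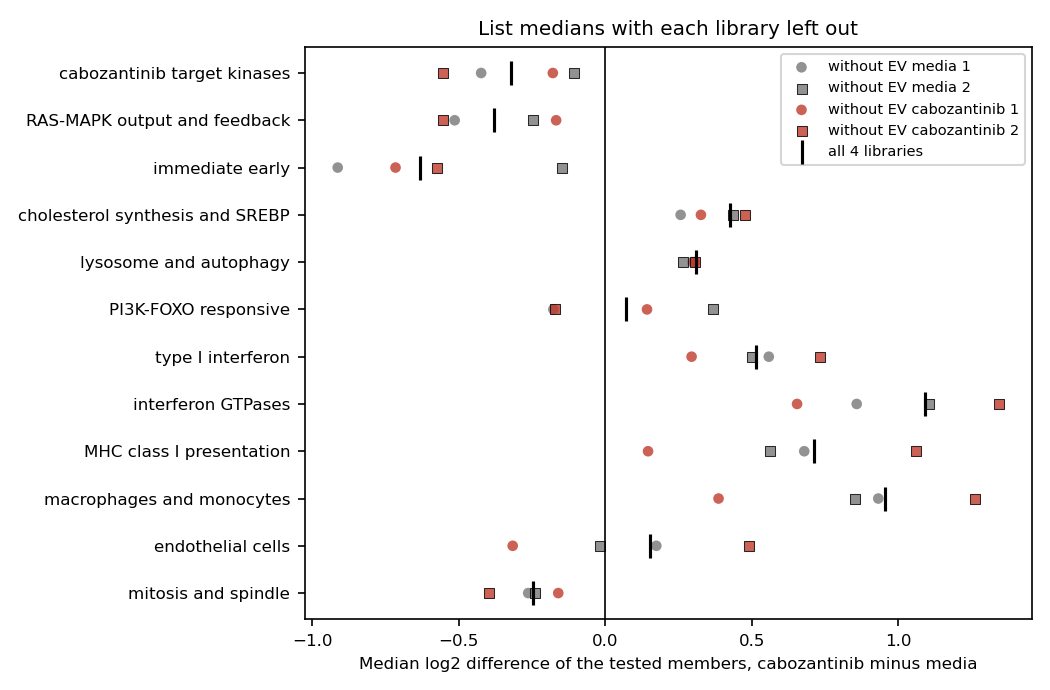
Median log2 difference of the tested members (cabozantinib minus media) of 12 gene groups with all 4 libraries (black bar) and with each library left out (grey, media; red, cabozantinib; circles, replicate 1; squares, replicate 2). Lysosomal and cholesterol groups keep the narrowest ranges, 0.26 to 0.31 and 0.26 to 0.48, and the PI3K-FOXO and endothelial medians change sign.

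With no gene called, the 15 genes of at least 1 CPM with the smallest unadjusted p in each direction were taken as the named genes. They describe the extremes of the comparison and were not tested as a set. On the low side, Dot1l, the histone H3 lysine methyltransferase, was at 59.5 and 81.8 CPM in media and 29.0 and 44.0 in cabozantinib (log2 difference -0.95, SE 0.31, edgeR unadjusted p = 0.00678). Carm1, an arginine methyltransferase, was at 205 and 204 CPM in media and 104 and 146 in cabozantinib (-0.71, SE 0.24, edgeR unadjusted p = 0.00988). Ppard, a lipid-sensing nuclear receptor, was at 115 and 134 CPM in media and 53.6 and 61.8 in cabozantinib (-1.11, SE 0.39, edgeR unadjusted p = 0.0122). None of these genes overlapped between the groups, though the media replicates of Dot1l lay farther apart than the gap to cabozantinib. Notch1, the receptor, was at 11.6 and 12.5 CPM in media and 5.35 and 5.58 in cabozantinib, Rin1, a RAS effector, at 117 and 130 against 59.1 and 90.4, and Prag1, a pseudokinase, at 8.80 and 14.6 against 3.54 and 4.92. The others were Trerf1, Glis3, Gm9824, Osbpl10, Vps37b, Epha2, Cherp, Shank3 and Rusc2. The log2 differences of the 15 ran from -1.66 to -0.71 and their unadjusted p from 0.00357 to 0.0188. Their transcripts had a median GC content of 57.4%, against 49.3% over all genes of at least 1 CPM, and all 15 kept their sign when each library's GC trend was removed.

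The 15 on the high side were of another kind. Of these, 6 are annotated as processed pseudogenes or a processed transcript (Gm4786, Gm6286, Rpl7a-ps5, Gm14323, 2010001A14Rik and Rpl36-ps12), close copies of which can share reads, so their values are uncertain. Rpl17, a ribosomal protein gene, was at 146 and 294 CPM in media and 1341 and 422 in cabozantinib, the first being the library with the high ribosomal protein sum. Cd59a, which protects cells from complement (chr2:104095801-104115354), was at 0.172 and 0.335 CPM in media and 2.66 and 2.12 in cabozantinib. Both cabozantinib libraries lay several-fold above both media libraries, with a log2 difference of 3.23 (SE 0.86, interval 1.41 to 5.04, edgeR unadjusted p = 0.00161), and DESeq2 called it at an adjusted p of 0.0459. Arg2, the mitochondrial arginase, was at 0.158 and 0.104 CPM in media and 2.57 and 1.52 in cabozantinib. Selenop, a secreted selenium carrier, was at 48.4 and 74.8 CPM in media and 147 and 129 in cabozantinib (1.16, SE 0.41, edgeR unadjusted p = 0.0112). Gm49527 (no count in media, at least 62.3-fold higher), Adam1a, Pcdhgb2, Txnip and Lgmn complete the set, and Adam1a and Pcdhgb2 were high in EV cabozantinib 1, at 13.2 and 17.3 CPM against 1.21 and 3.97 in EV cabozantinib 2.

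**Figure D4:**
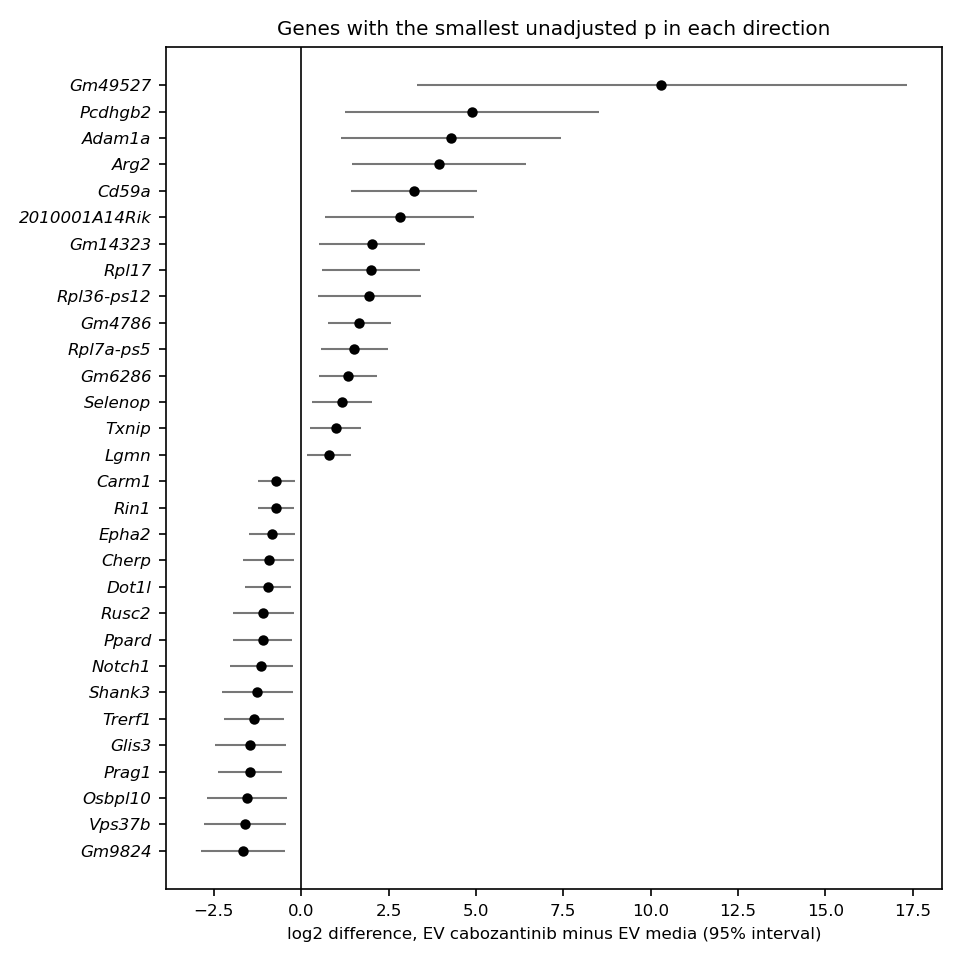
Log2 difference (EV cabozantinib minus EV media, points) with its 95% interval (bars) for the 15 genes on either side with the smallest unadjusted p. The lower genes lie between -1.66 and -0.71, and the higher ones start at 0.79 for Lgmn. The value of Gm49527, which had no count in media, depends on the fit.

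A few genes of low level separated completely and were chosen after their values were seen. Rasal3, a RAS GTPase-activating protein of blood cells, had no count in media and 46 and 45 counts in cabozantinib, and was at least 17.3-fold higher. Sirpb1c, a myeloid receptor gene, had 0 and 2 counts in media and 77 in each cabozantinib library. On the other side, L1cam, a neural adhesion molecule, was at 1.77 and 0.809 CPM in media and 0.122 and 0.341 in cabozantinib. All 3 had an unadjusted p of 0.00232 or less in edgeR and an adjusted p of 1, and DESeq2 called them at adjusted p-values of 0.00957, 0.0450 and 0.0345. In the 6 EV libraries with other exposures Rasal3 ran from 0.0580 to 1.35 CPM, so its levels with cabozantinib fall within the range of libraries that had none.

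The other EV libraries show how far these values depend on the media libraries. Cabozantinib was also given together with IL-27 to 2 EV libraries, which leaves 8 EV libraries without the drug. The cholesterol genes Cyp51, Msmo1, Insig1, Stard4, Hmgcs1 and Idi1 lay higher in all 4 libraries with cabozantinib than in all 8 without. These are 6 of 18 members, where 0.889% of the 13281 genes of at least 1 CPM did so. Insig1 was at 94.1 and 83.5 CPM with cabozantinib plus IL-27 and at 18.8 to 53.8 in the 8 libraries without the drug. Stard4 was at 81.8 and 78.6 CPM against 25.6 to 48.8. In the PI3K-FOXO group Txnip, Trib2 and Sesn1 behaved in the same way, with Txnip at 194 and 168 CPM with the combination against 77.6 to 154. On the low side the share over all genes was 0.580%. Epha2, at 52.6 and 53.4 CPM with the combination and 68.8 to 126 without the drug, was the only RAS-MAPK member below in all 4, and Slc2a1, Dot1l, Carm1 and Ppard lay below as well. So did 2 of 14 integrated stress response genes, Chac1 and Sesn2, and 2 of 15 p53 targets, Cdkn1a and again Sesn2. Of the 15 genes with the smallest p in each direction, 2 of the higher and 4 of the lower lay apart in this way. These counts include the 4 libraries compared above.

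**Figure D5:**
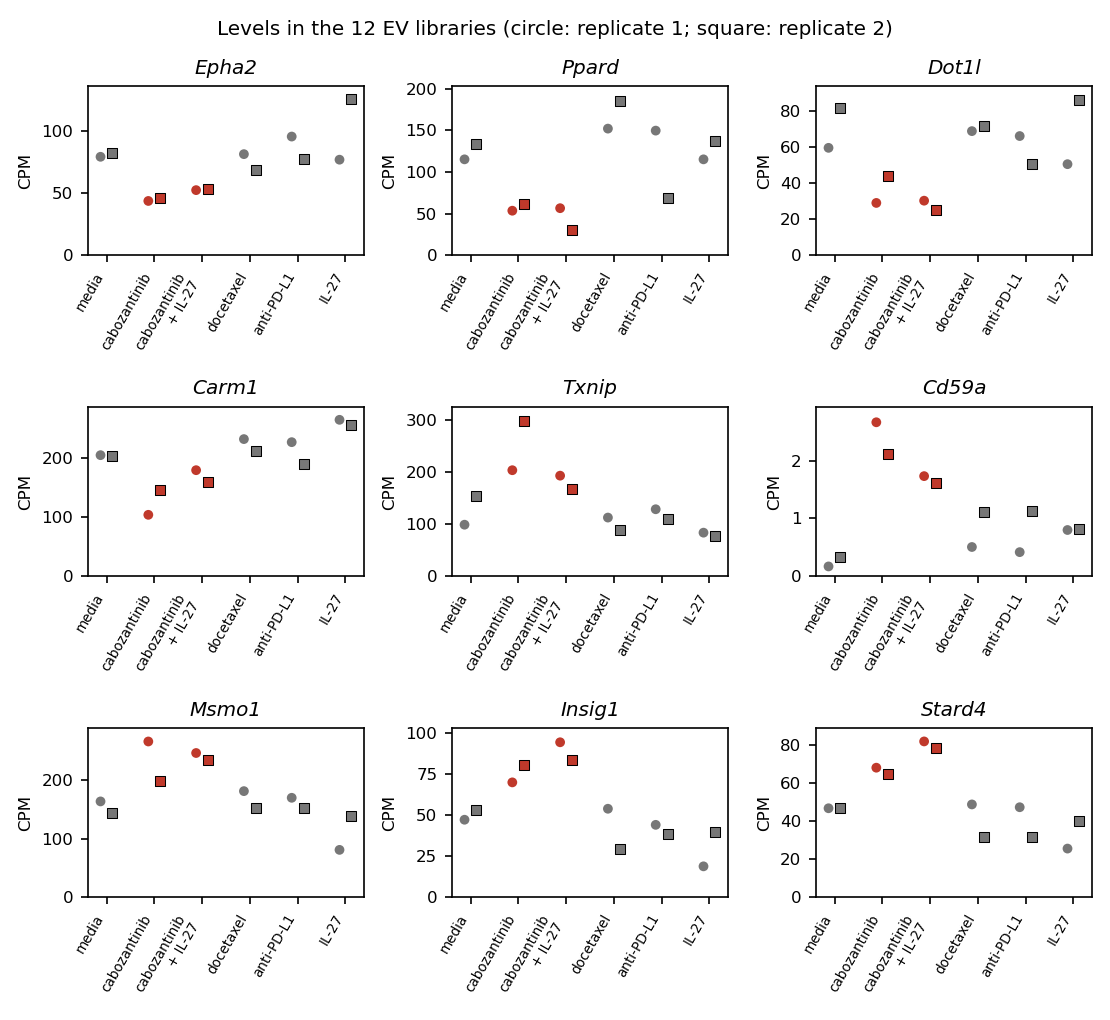
Level (CPM, axis from 0) of 9 genes in the 12 EV libraries by ex vivo exposure, red where cabozantinib was given. The genes shown are ones whose 4 red points lie on one side of the 8 grey points, for example Epha2 at 43.9 to 53.4 CPM against 68.8 to 126. Of the 15 named genes in each direction, 2 higher and 4 lower genes did so.

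A comparison that shares no library with cabozantinib against media sets the combination against the mean of EV docetaxel, EV anti-PD-L1 and EV IL-27. It was added after the data were seen. There, 14 of the 15 lower genes were again lower, where 46% of genes of at least 1 CPM were, and 11 of the 15 higher genes were again higher, where 54% were. Of the former 8, and of the latter 4, had an unadjusted p under 0.05, and none of the 30 was called. Over all 24440 genes this comparison called 1, and 9.19% had an unadjusted p under 0.05 in either direction. With each library's GC trend removed, 11 of the 15 lower genes kept the sign against 50.0% of genes, and 11 of the 15 higher. In that edgeR fit 4 of the lower genes, rather than 8, had an unadjusted p under 0.05 with the same sign. The median of the lower genes went from -0.71 to -0.39. Of the higher genes it was again 4. The cholesterol genes had a median of 0.61 in this comparison, RAS-MAPK genes -0.53, immediate early genes -0.93 and interferon GTPases 3.35, while lysosomal genes (-0.24), macrophage markers (-0.59), mitotic genes (0.26) and the target kinases (0.16) had the opposite sign to that against media. Insig1 differed by 1.27 (SE 0.29, edgeR unadjusted p = 4.84e-04, adjusted p = 0.22). Both combination libraries, and 1 of the 6 they are set against, have muscle sums of 468 to 547 CPM and 14.2 to 15.3 CPM of the neutrophil gene Ngp, where the 4 libraries of the main comparison hold at most 3.54 and 0.118. The part of this difference in the result was not tested, nor was that of IL-27.

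Against EV docetaxel, a taxane that stabilises microtubules, cabozantinib called 0 of 24440 genes (0%) in edgeR. An unadjusted p under 0.05 was reached by 872 genes, and DESeq2 called 57. Against the mean of the EV docetaxel, anti-PD-L1 and IL-27 groups it also called 0 (0%) in edgeR, where 1084 genes had an unadjusted p under 0.05, and DESeq2 called 58. These comparisons share the cabozantinib libraries with the one against media. Immediate early genes had a median log2 difference of -0.97 against docetaxel, -0.70 against the 3 other exposures and -0.63 against media. For cholesterol genes the 3 values were 0.34, 0.34 and 0.43, and for the interferon GTPases 1.59, 0.36 and 1.09. Lysosomal genes, at 0.31 against media, were at 0.00 against docetaxel and 0.02 against the other exposures. Txnip was 1.32 higher than with docetaxel (SE 0.35, unadjusted p = 0.00147).

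In tumours of mice that received the IL-27 plasmid (IL27v), the same exposure gave 456 genes higher (1.87%) and 3 lower (0.0123%). The interaction, cabozantinib minus media under EV minus the same under IL27v, called 5 of 24440 genes, all negative (0.0205%), at an adjusted p of 0.04997, while 1872 genes had an unadjusted p under 0.05 and DESeq2 called 575. With RLE size factors, a replicate block or each library's GC trend removed, 0 were called. Without IL27v media 2 the count was 507 and without EV media 1 it was 85, while without any other 1 of the 8 libraries it was 0 or 1. Prag1 is one of the 5. It was lower with cabozantinib under EV, as given above, and higher under IL27v, at 11 and 11.2 CPM against 1.46 and 2.61 in media, and the interaction was -3.92 (SE 0.62). Epha2 had an interaction of -1.58 (SE 0.44, adjusted p = 0.17) and Txnip of 0.21 (SE 0.48, adjusted p = 1). Of the 15 lower genes, 14 had a positive difference under IL27v, where 46.6% of genes of at least 1 CPM did. In the IL27v media libraries muscle markers sum to 698 and 549 CPM, Ngp is at 19.2 and 16.6 CPM, and the GC slope is -1.14 and -0.43 log2 units per 10 percentage points. In the IL27v cabozantinib libraries the muscle sums are 794 and 834 CPM, Ngp has no count and the slopes are 0.18 and 0.67. The slopes of the 4 EV libraries were -0.35 to 0.03. Among these 8 libraries the muscle sums thus follow the vector, while under IL27v Ngp and the GC slope follow the exposure. The exposure under IL27v cannot be told apart from Ngp and the GC slope, nor the vector from the muscle sums. Immediate early genes, at -0.63 under EV, had a median of 1.06 under IL27v, with 4 of 12 called higher. The interferon GTPases had a median of -1.91 under IL27v and type I interferon genes -1.13, both opposite in sign to that under EV. The cholesterol genes had 0.74, with 4 of 18 called higher.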

How the data were processed

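The authors deposited estimated counts per gene for 55401 Ensembl identifiers in 23 libraries, as whole numbers. The submitters' processing notes name build GRCm38 and the tools HISAT2, StringTie, cutadapt and DESeq2. Their settings, and the step that made the counts, are not stated in the sources used here. In these counts 143 genes hold 1 value in all libraries. Across the libraries 31.7% to 35.3% of counts up to 40 are multiples of 4, hence the division by 4 among the alternatives below. The labels describe stranded poly(A) libraries, but whether counting used strand is not stated. Symbols came from GENCODE annotation for 55034 identifiers.

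The main test was edgeR 4.0.16 (R 4.3.3) with TMM scaling, filterByExpr by group (24440 genes) and a quasi-likelihood fit of all 23 libraries as 12 groups, with 11 residual degrees of freedom. The common biological coefficient of variation was 0.62. A gene was called where its p, adjusted by Benjamini-Hochberg over all genes, was under 0.05. Standard errors are the log2 difference over the square root of F, and 95% intervals use the fit's total degrees of freedom. The code was tested on simulated data. No 2 libraries held identical values.

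Named were the 15 genes of at least 1 CPM with the smallest p in each direction, up to 4 members per list and 12 fixed genes, plus further members as examples of their list. Members and lists (29 of genes, 15 of markers) were chosen with earlier results of these data known. Alternatives were DESeq2 1.42.0, limma-voom (limma 3.58.1), RLE factors, other filters, fewer libraries, a replicate block and leaving out each library. Chosen after the data were seen were a division of all counts by 4, a GC offset, a fit on the 9 EV libraries with little muscle transcript, and the comparison of the combination with other exposures. Promoter windows are RefSeq's, build GRCm38.p6. Values of some list members are not reported here.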

Additional observations from a re-analysis of the deposited data

Results flagged for a closer look

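In edgeR's interaction test the difference between cabozantinib and media was called as unequal between vectors for 5 genes, all more negative under EV. Each had an adjusted p of 0.04997, just under the threshold of 0.05. Removing each library's GC trend, or scaling with RLE, left 0 calls, while DESeq2 called 575. Under IL27v the exposure cannot be told apart from Ngp and the GC slope, so the values below do not isolate a response to cabozantinib. The interaction of Junb, an AP-1 subunit, was -9.90 on the log2 scale (SE 1.55), with 4.95 and 30.4 CPM in EV media, 6.53 and 3.17 in EV cabozantinib, 0.268 and 0.821 in IL27v media and 112 and 174 in IL27v cabozantinib. Lmtk3, a membrane kinase, had -5.32 (SE 0.77), Prag1 -3.92 (SE 0.62), Sf3b4, a splicing factor subunit, -2.85 (SE 0.46), and ENSMUSG00000118642, which has no assigned symbol, -14.6 (SE 2.29). In all 5 the larger move was under IL27v, where each was called higher (Junb by 8.03, adjusted p = 0.0174), and none was called under EV.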

How the results depend on the processing

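No gene was called against media with RLE factors, a filter of 1 CPM in 2 libraries, the 12 EV or the 4 libraries alone, limma-voom, counts divided by 4, the GC offset or the 9 EV libraries with little muscle transcript. DESeq2 called 21 and the fit without a filter 87, of which 50 had no count in one group. Leaving out each library gave 0 to 3 calls against media, the 3 (Rgp1, Tmem185a and Rbm12) without EV cabozantinib 2, and 0 to 3 against docetaxel and against the other exposures. DESeq2 called 57 against docetaxel and 58 against the other exposures, the fit without a filter 212 and 125, the 12 EV libraries 1 in each, and the 9 EV libraries 1 against docetaxel. The 5 interaction calls became 0 with RLE factors, the 1 CPM filter, counts divided by 4 and the GC offset, 575 with DESeq2 and 829 without a filter, and 0 to 507 with a library left out (85 without EV media 1, 507 without IL27v media 2, 1 without EV cabozantinib 2). The cause was not tested. With a replicate block, 0 genes were called against media and 0 for the interaction. Same-numbered media and cabozantinib libraries deviated together at a correlation of 0.39, but with 2 pairs and no label that ties them the numbers do not pair the samples.

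Of 628 values of 42 named genes under the alternatives, 616 kept sign and side of the threshold, 7 became called and 5 changed sign, each with a library left out. The differences then ran from -0.39 to 0.047 for Cd274, -0.59 to 0.82 for Hgf, -0.70 to 0.019 for Dusp6 and -0.10 to 0.78 for Hras. Of 84 medians of the 12 gene groups plotted, 19 moved by more than the spread between replicates. Depth limits the T-cell and other markers under about 0.04 CPM, the level of 3 counts.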

Other observations

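Of the extracellular proteases and plasminogen activators, 6 of 14 lay below media in both cabozantinib libraries and 3 above. Plaur, the urokinase receptor, was at 55.4 and 60.2 CPM in media and 44.1 and 25.4 in cabozantinib, and Plau, urokinase, at 105 and 82.7 against 54.4 and 62.0. Mmp2, a gelatinase, was at 22 and 25.5 CPM in media and 36.8 and 56.7 in cabozantinib. None was called, and the intervals of all 3 included 0.

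Of 11 keratinocyte markers, 4 lay below media and 1 above, and 7 had no count in 1 of the groups. Krt14, Krt6a and Krt17 had counts in EV media 2 alone, at 1.35, 1.03 and 0.682 CPM. Sprr1b, a cornified envelope protein, was at 0.594 and 1.10 CPM in media and 0.0540 and 0.118 in cabozantinib, while Krt10, a keratin of differentiated cells, lay above, at 1.35 and 1.57 against 3.03 and 1.88. The markers summed to 3.55 and 7.33 CPM in media and 3.59 and 2.58 in cabozantinib.

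Zeb1, a mesenchymal transcription factor, was at 69.3 and 74.5 CPM in media and 64.0 in EV cabozantinib 2, but at 3.90 in EV cabozantinib 1.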
